A study of Mus musculus with 4 samples.

Results

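The genes described are 5 cell adhesion receptors, Vcam1, Icam1, Alcam, Mcam and Cd44, of the 55487 annotated mouse genes in the deposited count table. They were picked by name from the cell adhesion genes, with earlier results of the same UBXN9 against control contrast known. Their levels and differences are therefore given as a description, without a test. The series holds RNA-seq of the mouse liver cancer line LPC-HRas in 2 groups of 2 libraries. The first group overexpressed UBXN9, whose mouse gene is Aspscr1, and the second was labelled control, with nothing further given on what the control cells carry. Both groups were unstimulated and were grown in DMEM with fetal bovine serum. Nothing in the labels says that the libraries of a group came from separate cultures. Each p-value therefore sets the group difference against the spread between libraries alone, which may be technical. The labels do not say whether the overexpressing cells were 1 clone or a pool.

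Adhesion receptors hold cells to each other and to the matrix, and several of them are docking sites for leukocytes. VCAM1 and ICAM1 are immunoglobulin-family proteins that bind integrins on leukocytes. VCAM1 binds integrin alpha4 beta1, while ICAM1 binds the integrins built from ITGB2 with ITGAL or ITGAM. Both are known as genes switched on by TNF, interleukin 1 and interferon gamma through NF-kB and interferon-regulated factors, on liver endothelium and on other cells of inflamed liver. ALCAM is an immunoglobulin-family receptor that binds itself and CD6 on T cells, and MCAM is a relative found on endothelium and on melanoma cells. CD44 belongs to another family and binds hyaluronan, the large sugar polymer of the matrix.

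The proximal promoters of Icam1 and Cd44 are shown because one gene was higher in UBXN9-overexpressing cells and the other differed least between the groups, and because neither window overlaps an annotated transcript of its gene. Each line gives the 250 bases before the RefSeq start on build GRCm38.p6, 5′ to 3′ on the strand of the gene, chr9:21015690-21015939 on the plus strand for Icam1 and chr2:102901666-102901915 on the minus strand for Cd44. Capitals mark matches to the motifs named after the sequences.
Icam1: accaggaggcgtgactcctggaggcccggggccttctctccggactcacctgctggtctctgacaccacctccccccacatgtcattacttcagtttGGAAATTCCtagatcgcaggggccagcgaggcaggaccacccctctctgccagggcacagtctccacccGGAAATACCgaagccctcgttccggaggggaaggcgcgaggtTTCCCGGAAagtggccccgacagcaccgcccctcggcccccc
Cd44: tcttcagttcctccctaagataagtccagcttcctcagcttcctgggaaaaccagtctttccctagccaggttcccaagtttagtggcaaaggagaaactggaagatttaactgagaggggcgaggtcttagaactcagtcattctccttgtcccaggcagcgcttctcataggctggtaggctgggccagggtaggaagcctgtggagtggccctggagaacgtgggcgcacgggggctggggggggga

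Promoter windows were found for 4 of the 5 members, Icam1, Alcam, Mcam and Cd44. The motifs searched on both strands were a kappa B form bound by NF-kB (GGNNTTTCC), the interferon-stimulated response element (ISRE), the STAT site (TTCNNNGAA), the AP1 site (TGANTCA) and the TATA box (TATAAA). The Icam1 window held 2 matches to the kappa B form, at 153 to 145 and at 84 to 76 bases before the start, both on the opposite strand, and 1 match to the STAT site at 42 to 34 bases before it. None of the 3 matches overlapped another. Of all 32851 promoter windows of this length, 4.93% held the kappa B form and 7.02% the STAT site. The shares were 2.98% for the interferon-stimulated response element, 6.75% for the AP1 site and 12.4% for the TATA box. The windows of Alcam, Mcam and Cd44 held no match to any of the 5 motifs. The Alcam window, at 52453082 to 52453331, lay inside the annotated gene, which ends at 52454074. The Mcam window, at 44134408 to 44134657, ran into its annotated gene, which starts at 44134469. For these genes the bases before the outermost annotated start were thus not fully searched. G and C made up 65.2% of the Icam1 window, 69.2% of that of Alcam, 73.6% of that of Mcam and 56.4% of that of Cd44, against a median of 52.4% over all windows. A match is a run of letters and no evidence of binding.

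The totals of estimated counts ran from 21814969 to 26292686 per library, and levels are given as CPM, which are counts scaled to library size with TMM factors. Aspscr1 itself had 392 and 380 CPM in UBXN9 1 and 2, against 92.1 and 115 CPM in control 1 and 2. UBXN9 2 stood apart in the short noncoding RNAs Rn7sk, Rn7s1 and Rpph1. Rn7sk, a small nuclear RNA, had 5.48 and 26.4 CPM in UBXN9 1 and 2, against 1.68 and 2.31 CPM in control 1 and 2. Rn7s1 had 2.59 and 29.9 CPM in UBXN9 1 and 2, against 1.68 and 1.59 CPM in control 1 and 2. For Rpph1 the values were 1.59 and 10.4 CPM in UBXN9 1 and 2, against 0.801 and 0.544 CPM in control 1 and 2. The labelled cell type was only partly met by its markers. Alb and Prom1 had 0 counts in all 4 libraries and Hnf4a was counted once, in control 1, while the progenitor-linked genes Sox9 and Spp1 were abundant, with at least 3846 and 48441 counts in every library. Of the 8 tested markers of the labelled cell type, 0 were higher and 2 lower, Krt18 and Krt19. The shares of all genes tested were 5.06% higher and 2.38% lower, and they stand beside each marker list here. Krt18 had 7 and 3 counts in UBXN9 1 and 2, against 70 and 66 in control 1 and 2 (edgeR adjusted p = 0.00972). Krt19 fell to 0.310 times the control level (edgeR adjusted p = 0.0294). Epcam had at most 4 counts in any library. Leukocyte markers were mixed. Of 12 lymphoid markers, 6, Cd3e among them, had 0 counts in all libraries, and the pan-leukocyte gene Ptprc had 3 and 1 counts in UBXN9 1 and 2 and 0 in both controls. The lymphoid list summed to 9.69 to 11.1 CPM in UBXN9 libraries and 4.72 to 5.19 CPM in control libraries, nearly all of it Lck, which was called higher (2.08-fold, edgeR adjusted p = 0.0457), and the 12 myeloid markers to 66.1 to 74.3 CPM in UBXN9 libraries and 56.7 to 57.1 CPM in control libraries. Most of the myeloid sum was Cd14, with 61.9 and 56.1 CPM in UBXN9 1 and 2, against 49.9 and 50.3 CPM in control 1 and 2, and Cd68 had at least 115 counts in every library. Lyz2 was called higher (3.53-fold, edgeR adjusted p = 0.0408), with 63 and 82 counts in UBXN9 1 and 2, against 29 and 14 in control 1 and 2. The 12 endothelial markers summed to 12.3 to 13.1 CPM in UBXN9 libraries and 17.4 to 18.0 CPM in control libraries. Selp was the largest part of the control sums, at 8.89 and 9.57 CPM in control 1 and 2. It had 2.24 and 1.73 CPM in UBXN9 1 and 2 and was the only endothelial marker called. Of the 6 tested, 3 log2 fold changes were positive and 3 negative. The 12 stellate and fibroblast markers summed to 633 to 750 CPM in UBXN9 libraries and 502 to 560 CPM in control libraries. Of the 9 stellate and fibroblast markers tested, 2 (Col1a1 and Acta2) were higher and 0 lower, beside 5.06% and 2.38% of all genes tested. Their log2 fold changes were positive for 6 and negative for 3. Most of the sum in every library was Col3a1 and Pdgfrb, neither of them called (edgeR adjusted p = 0.711 and 0.260). Col3a1 had 225 and 269 CPM in UBXN9 1 and 2, against 287 and 257 CPM in control 1 and 2. Col1a1 had 109 and 144 CPM in UBXN9 1 and 2, against 30.3 and 24.9 CPM in control 1 and 2 (4.59-fold, edgeR adjusted p = 0.00136), and Acta2 had 46.6 and 38.9 CPM in UBXN9 1 and 2, against 17.7 and 17.8 CPM in control 1 and 2 (2.41-fold, edgeR adjusted p = 0.00784). The part of these marker genes in the results was not tested.

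Vcam1 and Icam1 were higher in UBXN9-overexpressing cells, Alcam and Mcam were lower, and Cd44 differed least, at 0.790 times the control level. All 5 genes passed the filter on low counts. In the edgeR fit over all 13230 genes tested, 4 of the 5 lay under an adjusted p of 0.05, 2 higher and 2 lower. The share of all genes tested was 7.44% in either direction, 5.06% higher and 2.38% lower. The libraries of the groups did not overlap for any of the 5 genes, as for 50.6% of all genes tested (25% with UBXN9 higher and 25.6% with UBXN9 lower). The members were picked on this contrast, so nothing is read from these counts. In bulk RNA, fewer expressing cells and less RNA per cell cannot be told apart.

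**Figure D1:**
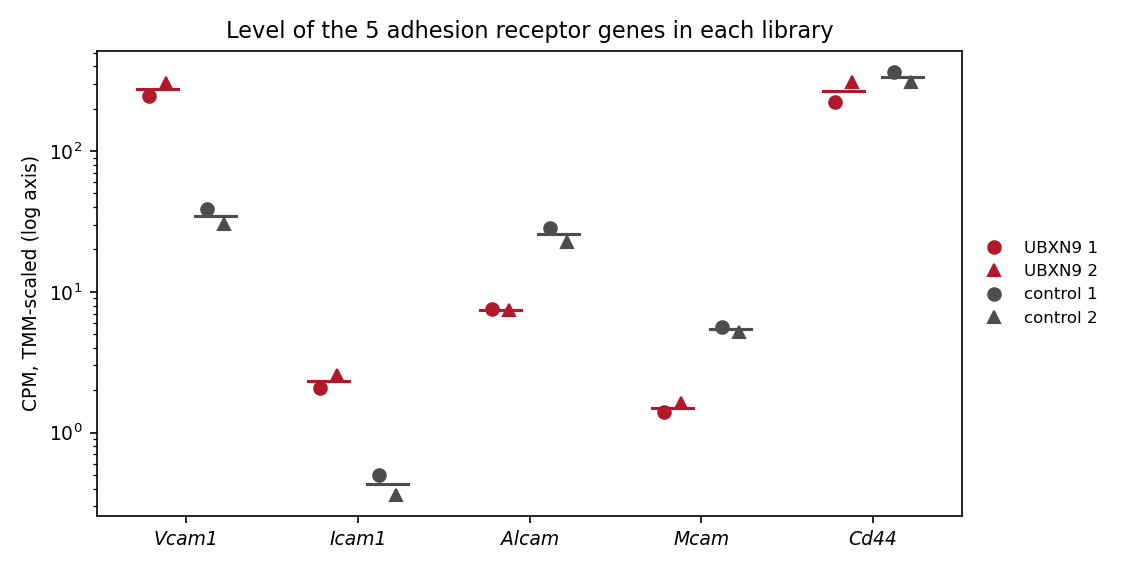
TMM-scaled CPM (log axis) of the 5 adhesion receptor genes in each library, circles for library 1 and triangles for library 2 of a group, with bars at group means. Vcam1 sits at 245 and 306 CPM in the UBXN9 libraries and at 38.7 and 30.4 CPM in the controls, while Cd44 lies between 225 and 366 CPM in all 4.

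Vcam1 (ENSMUSG00000027962, GRCm38, chromosome 3, 116109949 to 116129688, minus strand) was counted 4920 and 8116 times in UBXN9 1 and 2, against 1013 and 670 times in control 1 and 2. That made 245 and 306 CPM in UBXN9-overexpressing cells and 38.7 and 30.4 CPM in control cells. Both UBXN9 libraries were far above both controls, and the lower UBXN9 library was 6.34 times the higher control. The fit put the level 7.97-fold higher (log2 fold change 2.995, SE 0.21). Among all genes tested, Vcam1 ranked above 94.8% by mean CPM in UBXN9-overexpressing cells and above 60.3% in control cells. An antisense gene, Gm43109, shares 61 exon bases with it and was counted 0 times in every library.

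Icam1 (ENSMUSG00000037405, chromosome 9, 21015985 to 21028817, plus strand) was near the floor of the data. Its estimated counts were 41.8 and 67.8 in UBXN9 1 and 2, against 12.7 and 7.94 in control 1 and 2. On the CPM scale it had 2.09 and 2.56 in UBXN9-overexpressing cells and 0.496 and 0.363 in control cells. The groups did not overlap, and the exact Poisson 95% intervals of the rounded counts were 30.3 to 56.8 and 52.8 to 86.2 in the UBXN9 libraries and 6.92 to 22.2 and 3.45 to 15.8 in the controls, covering counting error only. The fit put the level 5.34-fold higher (log2 fold change 2.42, SE 0.43). Icam1 ranked above 17.6% of tested genes in UBXN9-overexpressing cells and above 3.31% in control cells. Icam1 was among the 4 genes past the threshold with all libraries and was not without control 2. The antisense gene Gm47079 shares 511 exon bases with Icam1, the counting of strand is not stated, and the values are not whole, so reads could have been divided between them. Gm47079 had estimated counts of 7.1 and 8.35 in UBXN9 1 and 2, against 6.64 and 1.55 in control 1 and 2.

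Icam1 lies at one end of a cluster of ICAM genes on the same strand. Icam4, the red cell ICAM, follows at 21029373 to 21030595, and Icam5, an ICAM of brain neurons, at 21032073 to 21039036. Icam4 had estimated counts of 0.08 and 1.89 in UBXN9 1 and 2, against 6.69 and 13.5 in control 1 and 2. It was too low to test. All 1110 exon bases of Icam4 are shared with the antisense gene Gm47079, so reads could have been divided between these genes as well. Icam5 shares 116 exon bases with Gm47079 and 791 with the antisense gene Gm26592. Icam5 had 3.04 and 3.32 CPM in UBXN9-overexpressing cells and 2.48 and 2.40 CPM in control cells, a log2 fold change of 0.38 with an SE of 0.30 (edgeR adjusted p = 0.535). Icam2, on chromosome 11, had 5 counts in each UBXN9 library and 1 and 0 in control 1 and 2. Of the 3 clustered genes, Icam1 was past the threshold, Icam5 was not and Icam4 was not tested. Icam1 was picked with this contrast known, so nothing is read from that difference.

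Alcam (ENSMUSG00000022636, chromosome 16, 52248996 to 52454074, minus strand) was counted 152 and 196 times in UBXN9 1 and 2, against 749 and 500 times in control 1 and 2. Its levels were 7.57 and 7.39 CPM in UBXN9-overexpressing cells and 28.6 and 22.7 CPM in control cells. The UBXN9 libraries were close to each other, and the lower control was 2.998 times the higher UBXN9 library. The fit put the level at 0.292 times that of control cells (log2 fold change -1.78, SE 0.22).

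Mcam (ENSMUSG00000032135, chromosome 9, 44134469 to 44142727, plus strand) was counted 28 and 43 times in UBXN9 1 and 2, against 147 and 115 times in control 1 and 2. It had 1.39 and 1.62 CPM in UBXN9-overexpressing cells and 5.61 and 5.22 CPM in control cells. Both UBXN9 libraries were low and both controls higher, with the lower control at 3.22 times the higher UBXN9 library. The fit put the level at 0.280 times that of control cells (log2 fold change -1.84, SE 0.30). Per exon length, Alcam stood at 2.55 and 2.14 times Mcam in UBXN9 1 and 2, and at 2.40 and 2.05 times Mcam in control 1 and 2, so the ratio of these genes differed less between the groups than between the libraries of a group. The antisense gene Gm10687 shares 17 exon bases with Mcam and had at most 16.1 estimated counts in any library.

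Cd44 (ENSMUSG00000005087, chromosome 2, 102811141 to 102901665, minus strand) was counted 4512 and 8174 times in UBXN9 1 and 2, against 9585 and 6813 times in control 1 and 2. It had 225 and 308 CPM in UBXN9-overexpressing cells and 366 and 309 CPM in control cells. UBXN9 2 and control 2 were almost equal, at 308 and 309 CPM, and only UBXN9 1 stood clearly lower. The fitted log2 fold change was -0.34 (SE 0.21), and it ran from -0.59 without UBXN9 2 to -0.13 without UBXN9 1. Cd44 ranked above 94.5% of tested genes in UBXN9-overexpressing cells and above 96.4% in control cells. The table gives 1 value per gene, so the splice forms of Cd44, for which the annotation has 9 transcripts, could not be told apart.

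Libraries of 1 group differed in the same direction for most of these genes. UBXN9 2 was above UBXN9 1 for Vcam1, Icam1, Mcam and Cd44, by 1.25, 1.23, 1.16 and 1.37 times, and slightly below it for Alcam. Control 1 was above control 2 for all 5 genes, by 1.08 to 1.37 times. Over 13219 tested genes with a known exon length, the difference between libraries had a Spearman correlation with that length of -0.434 for UBXN9 1 minus UBXN9 2 and 0.340 for control 1 minus control 2. Its part in the values of the 5 genes was not tested. For the group difference the same correlation was 0.00028.

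**Figure D2:**
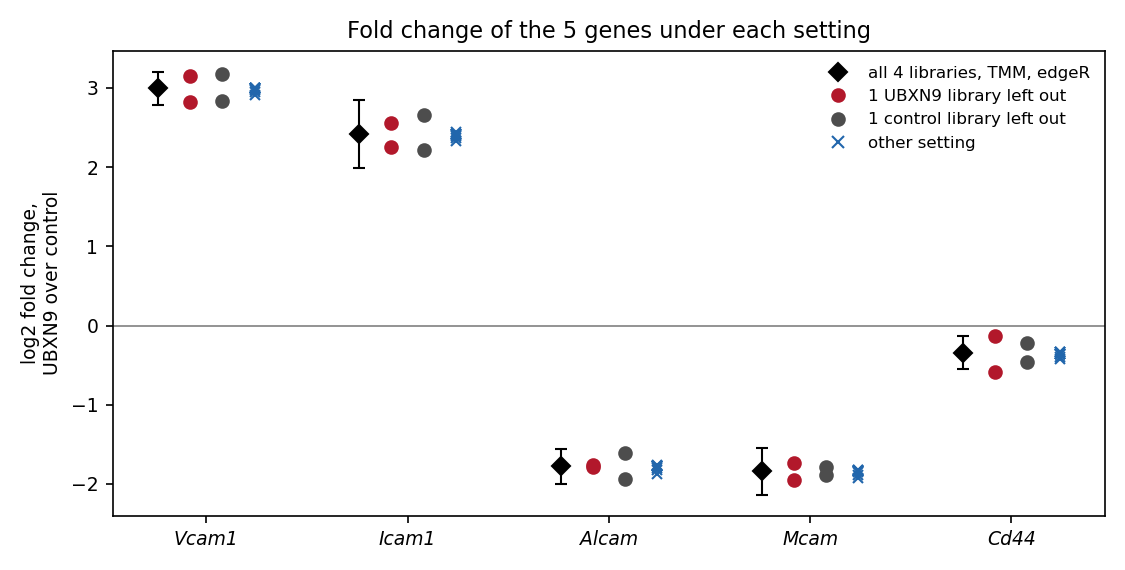
Log2 fold change of UBXN9 over control for each of the 5 genes with all libraries (diamond, with its SE), with 1 library left out (circles), and under the other scalings, filters, tools and replicate blocks (crosses). Vcam1 ran from 2.82 to 3.17 and Icam1 from 2.22 to 2.66 with a library left out, and no gene changed sign.

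Levels of different genes were compared per kilobase of exon. Vcam1 had 27.6 and 34.5 CPM per kb in UBXN9 1 and 2, against 4.36 and 3.43 CPM per kb in control 1 and 2. Icam1 had 0.479 and 0.588 CPM per kb in the UBXN9 libraries and 0.114 and 0.0832 CPM per kb in the controls. Both genes were higher in UBXN9-overexpressing cells, yet Vcam1 stood 57.6 and 58.7 times above Icam1 per length in UBXN9 1 and 2, and 38.3 and 41.2 times above it in control 1 and 2. Against Cd44, the level of Vcam1 per length was 0.833 and 0.759 in UBXN9 1 and 2 and 0.0807 and 0.0751 in control 1 and 2. Vcam1 thus came close to Cd44 in the UBXN9 libraries and lay far below it in the controls. Vcam1 and Alcam were alike per length in control 1 and 2, at a ratio of 1.09 and 1.08, while the ratio was 26.0 and 33.2 in UBXN9 1 and 2.

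The other immunoglobulin-family adhesion receptors were compared from a list of 45 genes that includes Vcam1, Icam1, Alcam and Mcam. Of the remaining 41 genes, 20 were deep enough to test. By edgeR, 0 of them had an adjusted p under 0.05, beside 7.44% of all genes tested, and 8 had an unadjusted p under 0.05. DESeq2 called 1 higher and 1 lower, and limma-voom 0. Leaving out UBXN9 2, edgeR called 2 of these genes higher and 5 lower. Leaving out UBXN9 1, it called 3 of them lower, the same count as with no filter on low values. The median log2 fold change of these 20 genes was -0.25, with 5 positive and 15 negative, beside a median of -0.0056 over all genes tested. Bsg, which encodes basigin, was the most abundant of them, with 716 and 592 CPM in UBXN9 1 and 2 and 705 and 837 CPM in control 1 and 2 (log2 fold change -0.24, SE 0.20, edgeR adjusted p = 0.556). Cd47, the signal that restrains engulfment by macrophages, had 223 and 211 CPM in UBXN9-overexpressing cells and 159 and 147 CPM in control cells (log2 fold change 0.51, SE 0.15, edgeR adjusted p = 0.102). Per exon length, Vcam1 took rank 4 and 2 of the 45 genes in UBXN9 1 and 2, against rank 11 and 12 in control 1 and 2. Alcam took rank 14 and 15 in UBXN9 1 and 2 and rank 13 in both controls, and Mcam rank 22 and 21 in UBXN9 1 and 2 and rank 14 in both controls.

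**Figure D3:**
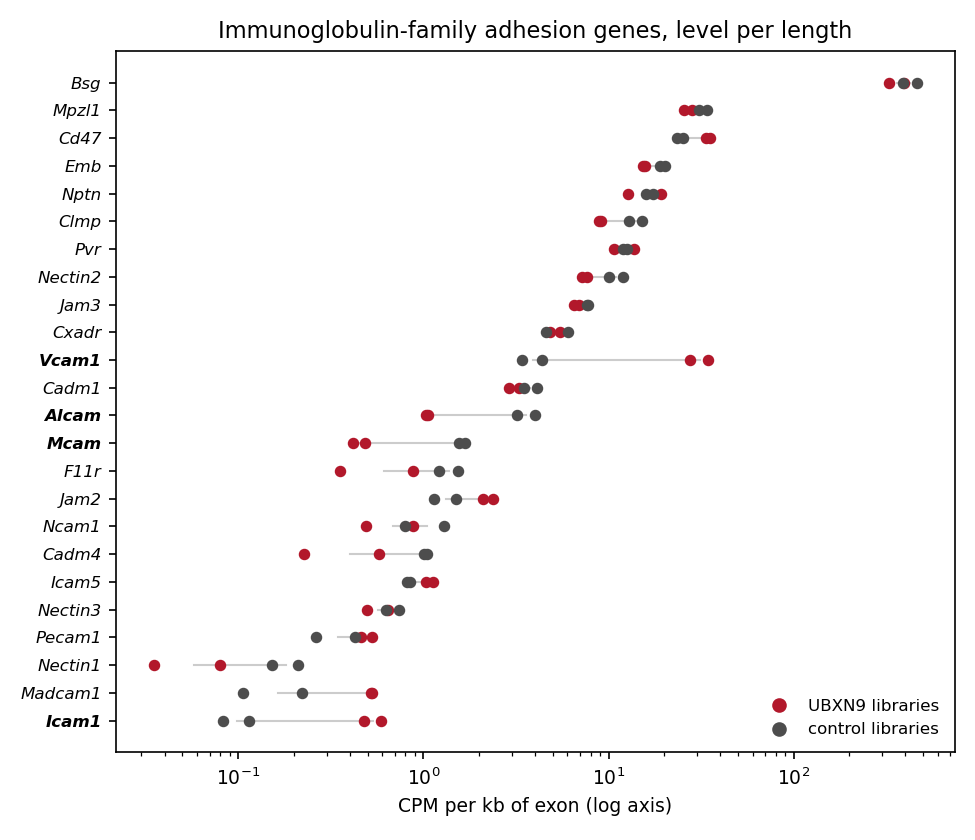
CPM per kb of exon (log axis) of the 24 tested immunoglobulin-family adhesion genes, each point a library and each grey line joining the group means, ordered by the control mean. The 4 genes in bold, Vcam1, Icam1, Alcam and Mcam, were picked on this contrast; Bsg heads the order in both groups.

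Of the integrin subunits, another large family of adhesion receptors, 14 were tested. Among them 2 were higher and 1 lower, beside 5.06% and 2.38% of all genes tested. Their median log2 difference was -0.13. Itga7, the alpha chain of a laminin receptor of muscle, had 35.9 and 36.9 CPM in UBXN9 1 and 2, against 17.2 and 17.9 CPM in control 1 and 2, and rose 2.08-fold (edgeR adjusted p = 0.0123). Itga3, the alpha chain of an epithelial laminin receptor, had 76.2 and 95.01 CPM in UBXN9 1 and 2, against 164 and 166 CPM in control 1 and 2, and fell to 0.518 times the control level (edgeR adjusted p = 0.0195). Itgb2, the beta chain of the leukocyte integrins that bind ICAM1, had 34 and 41 counts in UBXN9 1 and 2, against 6 and 8 in control 1 and 2, after rounding, and rose 5.45-fold (edgeR adjusted p = 0.0297). The call of Itga7 was lost without either control (edgeR adjusted p up to 0.107), that of Itga3 without control 2 (0.103), and that of Itgb2 by DESeq2 and without either control (up to 0.232).

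Of 11 leukocyte partners of the 5 receptors, 4 were deep enough to test, Itgb1, Itgb2, Itgb7 and Spn. Among these, 1 was higher (Itgb2) and 0 lower, beside 5.06% and 2.38% of all genes tested. Itgb7, a beta chain that pairs with Itga4, had 13.4 and 10.9 CPM in UBXN9 1 and 2, against 17.6 and 22.1 CPM in control 1 and 2 (edgeR adjusted p = 0.127). Spn, a leukocyte sialomucin, had 4.28 and 4.94 CPM in UBXN9 1 and 2, against 3.40 and 4.04 CPM in control 1 and 2 (edgeR adjusted p = 0.585). Itga4, the alpha chain that pairs with Itgb1 to bind VCAM1, had 2 and 1 counts in UBXN9 1 and 2 and 3 and 0 in control 1 and 2. Itgal, the partner of Itgb2, had 1 and 6 counts in UBXN9 1 and 2 and 0 in both controls. Itgb1, which also serves matrix receptors, had 499 and 378 CPM in UBXN9-overexpressing cells and 363 and 309 CPM in control cells, a log2 fold change of 0.38 with an SE of 0.20 (edgeR adjusted p = 0.337).

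Selectins are lectins that start leukocyte rolling, and they act on sugars carried by other proteins. Of 7 tested genes of selectins and their carriers, 1 rose and 2 fell, beside 5.06% and 2.38% of all genes tested. The median log2 fold change over the list was -0.080. Selp, which encodes P-selectin, had 2.24 and 1.73 CPM in UBXN9 1 and 2, against 8.89 and 9.57 CPM in control 1 and 2, and fell by 2.22 on the log2 scale (SE 0.28, edgeR adjusted p = 0.00476). Cd24a, which encodes a ligand of P-selectin, had 28.4 and 26.7 CPM in UBXN9-overexpressing cells and 58.6 and 55.6 CPM in control cells (edgeR adjusted p = 0.0102). Cd34, a sialomucin that can carry L-selectin ligands, rose 1.90-fold (edgeR adjusted p = 0.0396). Selp is also on the endothelial list, whose other called members were 0 of 5 tested. It shares 186 exon bases with Gm16587 and 438 with Gm16548, both on the opposite strand. The call of Cd34 was lost with upper-quartile factors, library size alone, a replicate block, and without either control (edgeR adjusted p up to 0.379), and that of Cd24a without control 2 (0.0523).

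Cadherins join like cells through catenins. Of 10 tested genes, 0 rose and 2 fell, beside 5.06% and 2.38% of all genes tested. Their median log2 difference was 0.047. Jup, which encodes plakoglobin, had 19.3 and 25.1 CPM in UBXN9 1 and 2, against 97.7 and 111 CPM in control 1 and 2, and fell by 2.23 on the log2 scale (SE 0.19, edgeR adjusted p = 0.00104). Cdh6, a classical cadherin of kidney, had 0.996 and 1.55 CPM in UBXN9-overexpressing cells and 6.14 and 4.99 CPM in control cells, and fell by 2.11 (SE 0.35, edgeR adjusted p = 0.0135). For both genes the UBXN9 libraries lay well below the controls.

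Of hyaluronan genes and CD44 partners, 14 were tested beside Cd44. Among the 14, 1 was higher and 1 lower (5.06% and 2.38% of all genes tested). The median log2 fold change over the list was -0.18. The called genes were both hyaluronan synthases, which make the ligand of CD44, and they moved in opposite directions. Has2 had 2.19 and 3.32 CPM in UBXN9 1 and 2, against 0.496 and 0.499 CPM in control 1 and 2, and rose 5.51-fold (edgeR adjusted p = 0.0165, and 0.0552 without control 2). Has1 had 3.78 and 3.66 CPM in UBXN9 1 and 2, against 10.0 and 10.98 CPM in control 1 and 2, and fell by 1.497 on the log2 scale (edgeR adjusted p = 0.0127, and 0.075 without control 2). Has2os, a transcript from the opposite strand, shares 182 exon bases with Has2.

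The linkers that tie adhesion receptors to the actin skeleton had 0 of 20 tested genes called by edgeR, beside 7.44% of all genes tested. Among the 20, 2 had an unadjusted p under 0.05, 1 was higher by DESeq2 and 0 were called by limma-voom. With a library left out, edgeR called up to 2 of them higher and up to 1 lower. Their median log2 fold change was -0.050. Ezr, Msn and Rdx encode ezrin, moesin and radixin, which bind the tail of CD44 and of ICAM proteins. Ezr had 723 and 586 CPM in UBXN9 1 and 2, against 585 and 682 CPM in control 1 and 2, and Msn had 467 and 519 CPM in UBXN9 1 and 2, against 497 and 519 CPM in control 1 and 2. Rdx had 77.1 and 62.9 CPM in UBXN9 1 and 2, against 71.6 and 69.7 CPM in control 1 and 2. The groups overlapped for these 3 genes. Flna, which encodes filamin, was the most abundant of the list, with 2159 and 2112 CPM in UBXN9-overexpressing cells and 2037 and 2439 CPM in control cells.

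Sheddases cut adhesion receptors from the surface. Their tested list of 16 genes with inhibitors had 1 higher and 1 lower, beside 5.06% and 2.38% of all genes tested. Their median log2 difference was 0.063. Adam17, which sheds VCAM1 and ICAM1, had 107 and 101 CPM in UBXN9 1 and 2, against 95.8 and 77.7 CPM in control 1 and 2 (log2 fold change 0.27, SE 0.17, edgeR adjusted p = 0.431). Adam10, which sheds CD44, had 47.8 and 48.5 CPM in UBXN9-overexpressing cells and 68.0 and 51.3 CPM in control cells (log2 fold change -0.31, SE 0.19, edgeR adjusted p = 0.41). Timp3, an inhibitor of ADAM and matrix metalloproteases, rose 1.89-fold (edgeR adjusted p = 0.0134, and up to 0.203 without either control). Syn3, a gene on the opposite strand, shares 1733 exon bases with Timp3, and strand handling is not stated. Bace2, an aspartyl protease, had 3 and 1 counts in UBXN9 1 and 2, against 74 and 63 in control 1 and 2 (log2 fold change -4.95, SE 0.59, edgeR adjusted p = 0.00411).

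Of known inducers and transcription factors of Vcam1 and Icam1, 29 were tested. Among them 6 were higher and 1 lower, beside 5.06% and 2.38% of all genes tested. The median log2 fold change over the list was 0.34, beside -0.0056 over all genes tested. The list was chosen with results known, so nothing is read from these values. Irf1, an interferon-induced transcription factor, had 463 and 381 CPM in UBXN9 1 and 2, against 115 and 116 CPM in control 1 and 2, and rose 3.67-fold (edgeR adjusted p = 0.00136). Irf2, its relative, rose 2.06-fold (edgeR adjusted p = 0.0147), and Cebpb, a leucine zipper factor, rose 2.40-fold (edgeR adjusted p = 0.0157). The call of Irf2 was lost with library size alone and without control 2 (edgeR adjusted p up to 0.176), and that of Cebpb without control 1.

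The cytokine Tnf stayed low in both groups, with 67 and 69 counts in UBXN9 1 and 2, against 21 and 18 in control 1 and 2, and rose 3.64-fold (edgeR adjusted p = 0.0282). Il1b had 4 and 0 counts in UBXN9 1 and 2 and 0 in both controls, while Il1r1, the receptor of interleukin 1, fell to 0.517 times the control level (edgeR adjusted p = 0.0253). Of the NF-kB subunit genes, Relb rose 1.59-fold, with 116 and 118 CPM in UBXN9 1 and 2, against 71.7 and 75.0 CPM in control 1 and 2 (edgeR adjusted p = 0.0407), and Rela and Nfkb1 did not pass the test. Relb was chosen after its values were seen, and its call was not followed under the alternatives. Rel and Nfkb2, the remaining subunit genes, did not pass either (edgeR adjusted p = 0.531 and 0.402). Rela had 103 and 108 CPM in UBXN9 1 and 2, against 81.3 and 86.7 CPM in control 1 and 2 (log2 fold change 0.33, SE 0.15, edgeR adjusted p = 0.26), and Nfkb1 had 129 and 118 CPM in UBXN9 1 and 2, against 101 and 96.3 CPM in control 1 and 2 (0.32, SE 0.15, edgeR adjusted p = 0.276). The count of inducers called higher was 3 without control 2 and 13 without UBXN9 1, and the calls of Tnf and Il1r1 were lost without either control (edgeR adjusted p up to 0.146 and 0.161), that of Il1r1 also with library size alone (0.0531).

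Of proteoglycan and tetraspanin surface partners, 12 were tested. Among them 1 was higher and 1 lower, beside 5.06% and 2.38% of all genes tested. Their median log2 difference was 0.013. Tspan8, a tetraspanin that associates with integrins and CD44, had 3.29 and 3.43 CPM in UBXN9 1 and 2, against 27.3 and 22.7 CPM in control 1 and 2, and fell by 2.89 on the log2 scale (SE 0.23, edgeR adjusted p = 0.000719). Sdc3, a syndecan, rose 1.64-fold (edgeR adjusted p = 0.0445), and its call was lost with upper-quartile factors, library size alone, a replicate block, and without either control. Over the 10 lists together, 140 of 194 different genes other than the 5 members were tested, and 12 rose and 9 fell, 15% of those tested, beside 7.44% of all genes tested. The lists were chosen with results known, so nothing is read from this share. The median log2 fold change of the 140 was -0.0059.

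**Figure D4:**
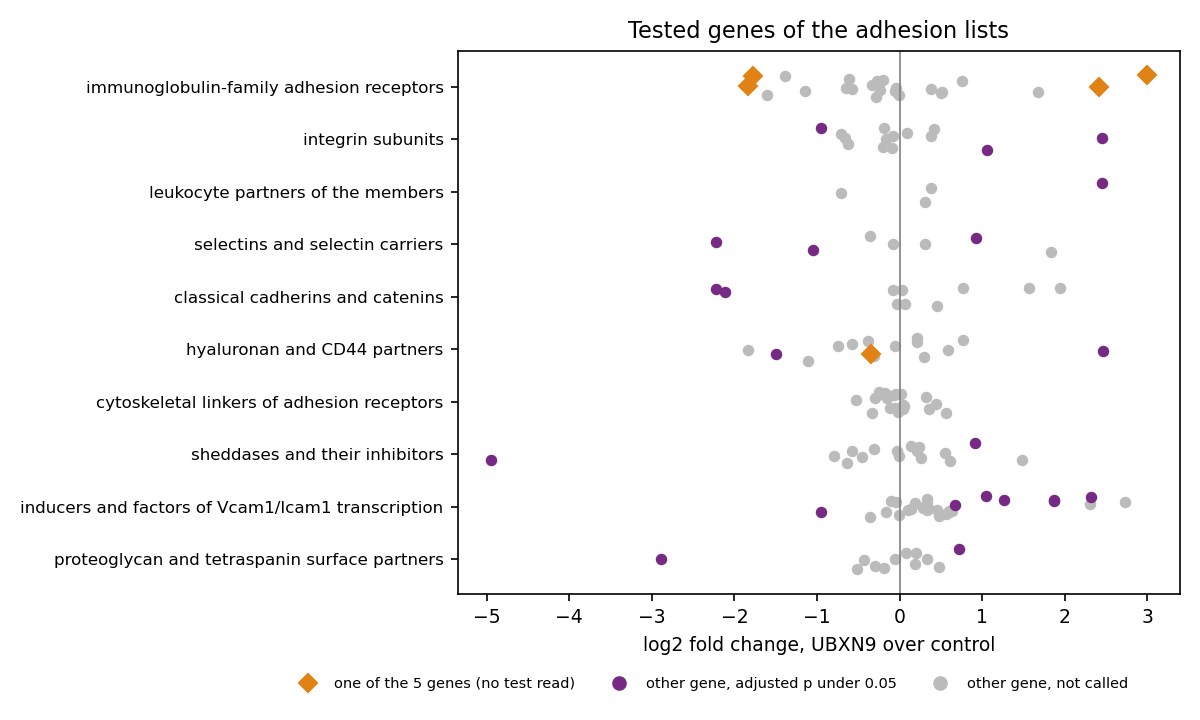
Log2 fold change of UBXN9 over control (x axis) for every tested gene of the 10 adhesion lists (rows). Diamonds are the 5 genes described here, purple points other genes with an edgeR adjusted p under 0.05 and grey points genes not called; the linkers of the actin skeleton and the other immunoglobulin-family receptors hold no purple point.

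Profiles over the 4 libraries were compared by the Euclidean distance between centred log2(CPM + 0.5) values, a description over 4 points. The genes nearest to Vcam1 were Cspg4, a surface proteoglycan, at a distance of 0.057, Ifi47, an interferon-induced GTPase, at 0.22, and Thbs1, the matrix protein thrombospondin, at 0.22. Thbs1 had 191 and 240 CPM in UBXN9 1 and 2, against 27.2 and 19.6 CPM in control 1 and 2. Nearest to Icam1 were Casp1 at 0.032, Ripk2 at 0.061 and Gata3 at 0.076, where the pseudocount compresses the differences of low genes such as Icam1 and Casp1. Nearest to Cd44 were Gins1 at 0.028, Nr4a1 at 0.035 and Spry4 at 0.037, each with UBXN9 1 lowest and control 1 highest.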

How the data were processed

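RNA of 4 libraries was sequenced by the authors on an Illumina HiSeq instrument from TruSeq RNA libraries, per the labels' protocols. The deposited table holds estimated counts for each gene, with library totals that differ; HISAT2 2.1.0, HTSeq and GRCm38.p6 are named in the submitters' processing notes, and the settings and strand handling are not given in the sources used here. Values were rounded to whole counts, and 241 of 55728 entries without an Ensembl identifier were left out. Groups were compared with edgeR 4.0.16 (R 4.3.3), TMM factors, filterByExpr and two-sided quasi-likelihood F tests, adjusted by Benjamini-Hochberg over 13230 genes at 0.05. The procedure was tested on simulated data, where only genes above a count floor were changed. Low genes such as Icam1 and Itgb2 were therefore not covered. The simulation also held no length-linked difference between libraries. The labels give both groups the same replicate numbers; same-numbered libraries deviated against each other (correlation -0.482), so no pairing was assumed. With 2 libraries a group, the smallest exact two-sided permutation p is 0.333. Depth bounds low genes, so Icam1 has counting intervals, which cover counting error only.

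The members and lists were chosen with earlier results of these data known. Genes named were the members, Aspscr1, up to 5 called genes of each list with the smallest p or, where none was called, the 2 most abundant, the other ICAM genes, and chosen partners, inducers, sheddases and linkers. Gene positions and exon lengths came from GENCODE M21 (GRCm38), and promoters from RefSeq (GRCm38.p6). Further named genes, Cd34, Sdc3, Cebpb and Adam17 among them, also share exon bases with genes on the opposite strand. Alternatives were other scalings and filters, DESeq2 1.42.0, limma-voom (limma 3.58.1), a replicate block, a crossed block added after seeing the data, and leaving out each library. Figures were drawn with matplotlib 3.10.9. Some genes of the lists are not reported here.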

Additional observations from a re-analysis of the deposited data

How the results depend on the processing

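The log2 fold changes of the 5 receptor genes kept their sign under every alternative in which they were measured. Icam1 fell out under the filter of 5 CPM in 2 libraries and has no value there. With each library left out in turn, Vcam1 ran from 2.82 to 3.17, Icam1 from 2.22 to 2.66, Alcam from -1.93 to -1.61, Mcam from -1.95 to -1.73 and Cd44 from -0.59 to -0.13. Of the 5 genes, 4 lay under an adjusted p of 0.05 with all libraries, 3 without control 2 (Icam1 lost), and 5 without UBXN9 2 (Cd44 added). Over all genes the count was 984, and 508 to 2782 with a library left out (373 to 1611 higher, 135 to 1318 lower), and without a filter it was 1827 (1144 higher, 683 lower). Among the adhesion lists, 3 to 26 other genes were higher and 5 to 21 lower with a library left out, 19 and 15 without a filter, and 20 higher by DESeq2. Counts were smallest without control 2. A replicate block gave 932 genes and changed no call among the 5 receptors; among named genes it ended those of Cd34 and Sdc3. The same-numbered libraries deviated against each other, and a crossed replicate block, added after seeing the data, gave 3137 genes (1776 higher, 1361 lower) and 5 of the 5 receptors, Cd44 added, with 33 higher and 26 lower in the adhesion lists. Values near 0 changed sign. Ezr (0.046) had -0.0067 with upper-quartile factors, -0.047 with library size alone, and -0.11 to 0.19 with a library left out (-0.066 without control 1). With a library left out, Flna (-0.068) ran from -0.20 to 0.068, Msn (-0.044) from -0.12 to 0.032 and Rdx (-0.014) from -0.16 to 0.13. The cause of these shifts was not tested. Among the 5 genes depth limits Icam1 most, with rounded counts of 13 and 8 in the controls.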
